A study of Mus musculus with 6 samples.

Results

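The genes described here encode laminins, integrins, and a group of basement membrane linkers and laminin-binding proteins, called linkers below. All were read in ovaries of wild-type and Rnf111+/- mice. They were chosen by symbol, with earlier results of these data known. The rule took every laminin alpha, beta or gamma chain gene (Lama, Lamb or Lamc with a digit) and every integrin alpha or beta subunit gene (Itga, Itgb). It also took Nid1, Nid2, Hspg2, Agrn and Tinagl1. Genes were kept when at least 10 counts were present in at least 3 of the 6 libraries. Of 35415 genes in the count table, 43 matched and 40 met the count minimum: 11 laminin genes, 5 linker genes and 24 integrin genes. Itgad, Itgb2l and Itgb6 did not meet it, and Itgb1bp1, Itgb1bp2, Itgb3bp and Itgbl1 start alike but encode no integrin subunit. The 40 genes each had at least 10 counts in every library, so none was kept through 1 genotype only.

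The 6 bulk RNA-seq libraries came from ovary of mice 3 months old in estrus, the phase of the cycle around ovulation. Of these, 3 were wild type and 3 were Rnf111+/-, called heterozygous below, and the labels give a mouse of its own for each. Rnf111 encodes Arkadia, a ubiquitin ligase that promotes signalling by the TGF-beta family. The mice were edited with CRISPR-Cas9 to model deleterious variants in 1 copy of RNF111 in premature ovarian insufficiency, in which the ovary stops working too early. The labels name neither the edited allele nor which of the edited lines was sequenced.

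Basement membranes are thin sheets of matrix that lie under epithelia and around vessels, muscle and, in the ovary, every follicle, where one separates the granulosa cells from the theca. Laminins are trimers of an alpha, a beta and a gamma chain that assemble into a network on the cell surface. Nidogens and the heparan sulfate proteoglycan perlecan tie this network to a second one made of type IV collagen. Integrins are receptors of an alpha and a beta subunit that bind laminin, collagen, fibronectin or cell surface ligands and couple them to the cytoskeleton. The laminin alpha chain and the integrin alpha subunit largely set which partners bind. Basement membranes of ovarian follicles are known to change their laminin and type IV collagen chains as the follicle grows and becomes a corpus luteum.

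The libraries held 38261449 to 39474515 counts each, and 3 counts corresponded to 0.0747 to 0.0784 CPM (read counts scaled to library totals). Rnf111 itself was at 53.9 ± 0.477 CPM in wild-type and 44.6 ± 0.394 CPM in heterozygous libraries (mean ± SD, n = 3 each), with all heterozygous values below all wild-type values (log2 fold change -0.27 ± 0.07 SE, adjusted p = 0.04 by edgeR's quasi-likelihood test; exact permutation p = 0.1). The Rnf111 call held in 1 of 6 fits that each left out a library, the one without wild-type replicate 3 (adjusted p from 0.0421 to 0.146). Wild-type replicate 3 stood apart. Its correlation with wild-type replicates 1 and 2, in log2 CPM over genes, was 0.9735 and 0.9745, where those 2 replicates gave 0.9887 with each other and pairs of heterozygous libraries gave 0.9861 to 0.9885. In that library, summed markers of oviduct epithelium were at 256 CPM (69.5 to 82.7 CPM in the other 5 libraries), those of macrophages at 350 CPM (187 to 265), and those of granulosa cells at 2767 CPM (4893 to 7153). Calls that change without that library are given both ways.

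In heterozygous ovaries 4 of the 5 linker genes fell, the laminin alpha1 and gamma1 chain genes fell, the laminin alpha2 chain gene rose, and among the integrin genes Itga5, the alpha subunit of the fibronectin receptor, fell. Of the 40 genes, 7 fell (Tinagl1, Hspg2, Nid2, Itga5, Nid1, Lama1 and Lamc1), 1 rose (Lama2) and 32 did not pass edgeR's quasi-likelihood test at an adjusted p of 0.05. These shares, 17.5% fallen and 2.5% risen, stand beside 5.74% fallen and 3.90% risen of the 16841 genes tested (9.64% called in either direction). The median log2 fold change was -0.14 over the 40 genes, 28 of them below 0, and -0.008 over every gene tested. The laminin and linker side held 6 of the falls and the rise among 16 genes, with a median of -0.31. The integrin side held 1 fall among 24 genes, with a median of -0.07. Every heterozygous value was below every wild-type value for 15 of the 40 genes (37.5%) and above every one for 2 (5.0%), beside 16.9% and 15.1% of all genes tested. In bulk tissue, fewer cells of a type and less RNA per cell cannot be told apart.

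**Figure D1:**
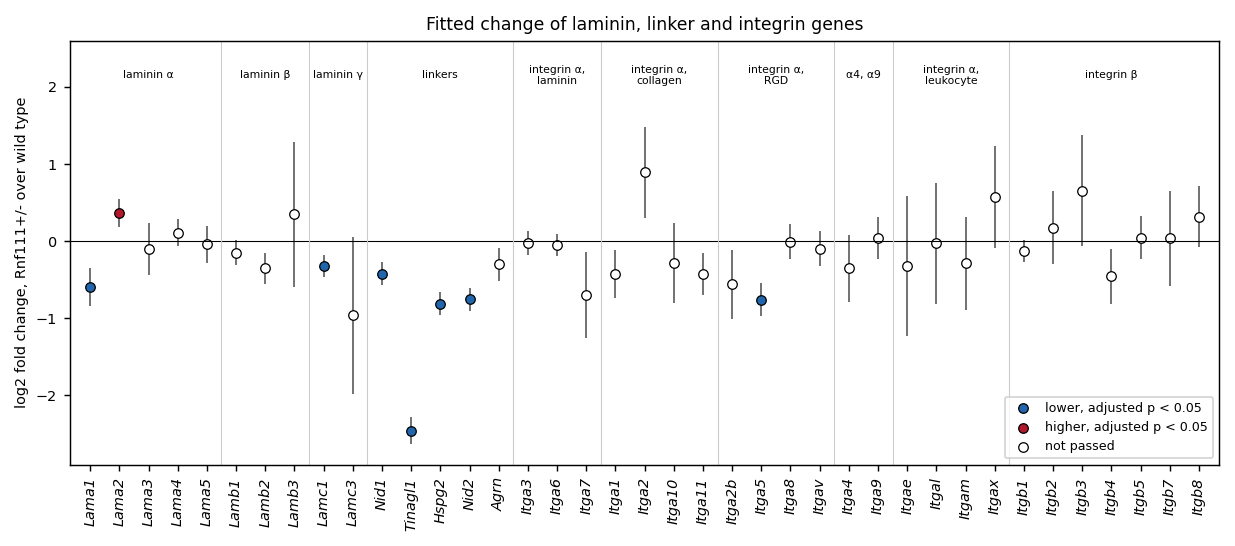
Fitted log2 fold change of each gene, heterozygous over wild type, ordered by role, with bars of 2 standard errors on each side. Tinagl1 stands lowest at -2.46, and all 5 linker genes lie below 0, while most integrin genes lie near 0 with bars that cross it.

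Leaving out single libraries moved these counts. Falls numbered 4 without heterozygous replicate 3, 10 without wild-type replicate 3 and 5 or 6 in the other such fits. Rises numbered 4 without wild-type replicate 3, 1 without heterozygous replicate 1 (Itga2, not Lama2) and 0 in the rest. Tinagl1, Hspg2, Nid2 and Itga5 kept their call in all 6 such fits. Nid1 lost it without heterozygous replicate 2 (adjusted p = 0.0761) or 3 (0.0612). Lama1 lost it without wild-type replicate 1 (0.0638) and without heterozygous replicate 1 (0.0809) or 3 (0.0887). Lamc1 and Lama2 kept their calls only without wild-type replicate 3 (0.0166 and 0.0236), with adjusted p of up to 0.124 and 0.139 without 1 of the others. The fit without wild-type replicate 3 called 10 falls and 4 rises among the 40 genes, beside 8.82% and 7.37% of the genes tested in that fit (16.2% in either direction). DESeq2 on all 6 libraries called 9 falls and 2 rises, with Lamb2 and Itga11 added to the falls and Itga2 to the rises, beside 8.57% and 6.96% of all genes (15.5% in either direction).

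The sequences upstream of Tinagl1, Hspg2, Nid1 and Itga5 are shown because these are the fallen genes for which RefSeq promoter windows (build GRCm38.p6) were at hand. Windows were matched by symbol for 26 of the 40 genes, with 30 windows in all, and include 5 of the 8 genes that passed the test. Each is read 5′ to 3′ on the strand of the gene and holds the bases before an annotated start that lie in no annotated exon. Capitals mark GGGCGG or its complement CCGCCC, the GC box bound by SP1 family factors, and CAGAC or GTCTG, the SMAD-binding box, both searched on both strands.
Tinagl1, inner start, chr4:130174821-130174901 (minus strand): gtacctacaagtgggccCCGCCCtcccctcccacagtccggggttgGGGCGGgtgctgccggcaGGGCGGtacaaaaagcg
Tinagl1, outer start, chr4:130175123-130175372 (minus strand): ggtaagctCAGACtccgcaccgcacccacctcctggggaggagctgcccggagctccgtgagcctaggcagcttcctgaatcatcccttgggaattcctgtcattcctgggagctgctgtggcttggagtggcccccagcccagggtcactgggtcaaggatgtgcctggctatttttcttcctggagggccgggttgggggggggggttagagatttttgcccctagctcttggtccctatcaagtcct
Hspg2, chr4:137468553-137468768 (plus strand): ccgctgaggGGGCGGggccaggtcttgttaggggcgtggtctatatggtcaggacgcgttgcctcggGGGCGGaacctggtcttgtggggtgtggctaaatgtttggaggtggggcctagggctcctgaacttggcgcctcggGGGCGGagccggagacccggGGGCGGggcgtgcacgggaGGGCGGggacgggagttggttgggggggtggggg
Nid1, chr13:13437352-13437550 (plus strand): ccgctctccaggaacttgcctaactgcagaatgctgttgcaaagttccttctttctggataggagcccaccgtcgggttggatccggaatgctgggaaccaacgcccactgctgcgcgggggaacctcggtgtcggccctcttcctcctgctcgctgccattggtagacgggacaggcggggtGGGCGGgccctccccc
Itga5, chr15:103366792-103367041 (minus strand): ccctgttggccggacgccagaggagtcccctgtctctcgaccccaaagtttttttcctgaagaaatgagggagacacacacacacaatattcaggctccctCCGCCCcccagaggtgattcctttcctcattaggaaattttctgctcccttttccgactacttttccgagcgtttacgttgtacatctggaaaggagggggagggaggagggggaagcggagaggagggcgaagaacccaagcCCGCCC

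The GC box was found 3 times in the printed bases of the inner Tinagl1 start, 5 times upstream of Hspg2, 2 times upstream of Itga5 and 1 time upstream of Nid1. The outer Tinagl1 start held 0 GC boxes and 1 SMAD-binding box, the only CAGAC among the printed sequences. Over the 250 bases before each start, 46.7% of the windows of the 40 genes (14 of 30) held a GC box, beside 32.7% of all 32851 RefSeq mouse promoters of that length. CAGAC was held by 15 of these 30 windows and by 42.2% of all promoters. The SMAD1/5-type GC element GGCGCC, which can overlap a GC box, was in 16.7% of these windows and 9.59% of all. The AP-1 element TGANTCA was in 6.67% and 6.75%, and TATAAA in 0 of 30 windows and 12.4% of all promoters. The Lama2 window, of the gene that rose, held 1 CAGAC and 0 GC boxes. The GC content of these 30 windows ran from 43.6 to 83.6%, most of them above the median of 52.4% over all promoters. The shares of windows with a match were not corrected for GC content. A match describes letters in a window and not a site in use.

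Tinagl1 showed the largest fitted change of the 40 genes. It encodes a secreted matricellular protein, tubulointerstitial nephritis antigen-like 1, that binds laminin and integrins. It was at 161, 142 and 163 CPM in wild-type replicates 1 to 3 and at 26.9, 27.5 and 30.5 CPM in heterozygous replicates 1 to 3. The 2 genotypes were far apart, with little spread within either. Its mean fell from 155 ± 11.5 to 28.3 ± 1.91 CPM (SD, n = 3 each), 5.50-fold, or a log2 fold change of -2.46 ± 0.09 (SE, adjusted p = 1.5e-05). Per kilobase of coding sequence, a scale for comparing genes of different length, Tinagl1 went from 111 ± 8.23 to 20.2 ± 1.37 CPM per kb. On coding length, wild-type Tinagl1 stood above the other linkers, of which Nid1 was highest at 66.5 ± 4.84 CPM per kb. That order depends on the length used. The annotated exons of Tinagl1 cover 4358 bases, of which 1398 are coding. On the length of all exons, wild-type Tinagl1 did not stand above Nid1 or Hspg2. In heterozygous ovaries Tinagl1 stood below Nid1 (49.6 ± 2.22) and Hspg2 (29.5 ± 1.84) on coding length.

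Hspg2 encodes perlecan, the large heparan sulfate proteoglycan of basement membranes. It had the highest CPM of the linker genes, at 650, 707 and 691 CPM in wild-type and 373, 375 and 416 CPM in heterozygous replicates 1 to 3. The genotypes were separated by a gap wider than the range of either. The mean fell from 682 ± 29.3 to 388 ± 24.2 CPM, to 56.8% of the wild-type level (log2 -0.81 ± 0.07, adjusted p = 0.000675).

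The nidogens, rod-shaped glycoproteins that bridge laminin and type IV collagen, both fell. Nid2 was at 71.6, 64.6 and 65.3 CPM in wild-type and 38.5, 39.6 and 41.2 CPM in heterozygous replicates, a log2 fold change of -0.76 ± 0.08 (adjusted p = 0.00108). Nid1 was at 233, 243 and 268 CPM in wild-type and 192, 176 and 187 CPM in heterozygous replicates (log2 -0.42 ± 0.08, adjusted p = 0.0129). Neither gene's genotypes overlapped, and heterozygous libraries held 59.2% of the wild-type level of Nid2 and 74.7% of that of Nid1. Per kilobase, Nid1 stood above Nid2 in both genotypes, at 66.5 against 16.0 CPM per kb in wild type and 49.6 against 9.44 in heterozygous ovaries. The difference between the fold changes of the nidogens was not tested.

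Agrn encodes agrin, a heparan sulfate proteoglycan that binds laminin and dystroglycan. It was at 101, 104 and 133 CPM in wild-type and 89.9, 88.6 and 96.7 CPM in heterozygous replicates. The genotypes did not overlap, but wild-type replicate 3 was well above the other wild-type libraries, and the difference did not pass (log2 -0.30 ± 0.11, adjusted p = 0.124). Without that library the log2 fold change of Agrn was -0.15 ± 0.07 (adjusted p = 0.167). Thus 4 of the 5 linkers fell, Agrn did not pass in either fit, and their median log2 fold change was -0.76.

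**Figure D2:**
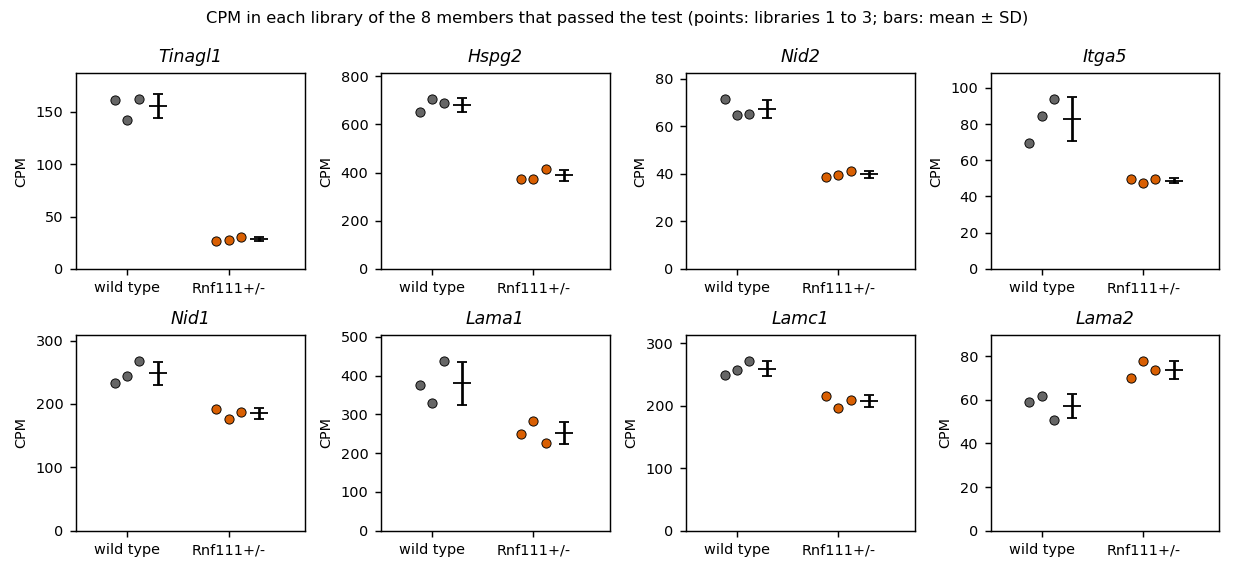
CPM in each library of the 8 genes that passed the test, with the mean and SD of 3 libraries beside the points and each axis starting at 0. Wild-type and heterozygous points do not overlap in any panel, and relative to the level of the gene the gap is widest for Tinagl1 (142 to 163 against 26.9 to 30.5 CPM).

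Marker genes of several cell types that make basement membrane were also lower in heterozygous libraries. Summed endothelial markers were at 491 to 586 CPM in wild-type and 374 to 414 CPM in heterozygous libraries, and 6 of 10 fell. The defining markers Cdh5 and Kdr were at 70.4% and 76.3% of wild type, and Pecam1, which did not pass (adjusted p = 0.101), at 67.5%. Summed stromal markers were at 3411 to 3998 against 2102 to 2476 CPM (6 of 8 fell), smooth muscle and pericyte markers at 1305 to 1609 against 867 to 1119 CPM (3 of 10 fell), and surface epithelium markers at 561 to 607 against 417 to 476 CPM (5 of 9 fell). Marker log2 fold changes ran from -0.57 to -0.16 for endothelium, from -1.02 to 0.11 for stroma, from -1.13 to 0.10 for smooth muscle and pericytes and from -0.86 to 0.03 for surface epithelium. No marker of these 4 lists was at 0 in all libraries. Falls made up 30.0 to 75.0% of the markers in each of these lists, beside 5.74% of all genes tested. Not every sum was lower. Summed lymphatic endothelium markers overlapped, at 156 to 212 CPM in wild-type and 178 to 186 CPM in heterozygous libraries, with 0 of 5 called. Summed granulosa cell markers were at 2767 to 5306 CPM in wild-type and 5139 to 7153 CPM in heterozygous libraries. Summed luteal markers were at 8153 to 9161 against 9615 to 12569 CPM, though 3 of 8 fell and 0 rose. Luteal marker log2 fold changes ran from -2.22 to 3.13, with 5 of 8 below 0 and a median of -0.53. The 3 above 0, Akr1c18, Ptgfr and Sfrp4, did not pass. The part of these cell types in the falls of the linkers, laminins and Itga5 was not tested.

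Among the laminin alpha chains, which carry the main sites for integrins and dystroglycan, 1 fell, 1 rose and 3 did not pass. Lama1, the alpha chain of laminin-111, was at 375, 329 and 439 CPM in wild-type and 249, 282 and 226 CPM in heterozygous replicates. Every heterozygous value was below the lowest wild-type value, though both groups were spread. The mean fell from 381 ± 55.2 to 252 ± 28.4 CPM (log2 -0.59 ± 0.12, adjusted p = 0.0211). Blocking on the replicate number ended the call (adjusted p = 0.06).

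Lama2 encodes the alpha chain of laminin-211, known for its part in muscle and nerve and mutated in a congenital muscular dystrophy. It was at 58.9, 61.7 and 50.7 CPM in wild-type and 69.8, 77.9 and 73.7 CPM in heterozygous replicates. All heterozygous libraries were above all wild-type libraries, and wild-type replicate 3 was the lowest of the 6. The mean rose from 57.1 ± 5.72 to 73.8 ± 4.05 CPM (log2 0.37 ± 0.09, adjusted p = 0.0385).

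The other alpha chains overlapped between genotypes. Lama4, the alpha chain typical of vessel walls, was at 84.4 ± 2.09 against 91.0 ± 10.3 CPM (log2 0.11 ± 0.09, adjusted p = 0.499), with the fold change bounded by -0.07 and 0.28 at 2 standard errors. Lama5, the broadly expressed epithelial and endothelial alpha chain, was at 36.5 ± 4.98 against 35.4 ± 2.95 CPM (log2 -0.04 ± 0.12, adjusted p = 0.861). Lama3, the epithelial alpha chain of laminin-332, was at 8.03 ± 1.31 against 7.47 ± 0.356 CPM (log2 -0.10 ± 0.17, adjusted p = 0.749).

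On the scale of counts per kilobase of coding length, Lama1 made up 61.0, 57.4 and 65.6% of the alpha chain signal in wild-type and 50.1, 52.3 and 44.2% in heterozygous replicates. Its share did not overlap between genotypes and was 12.5 percentage points lower in heterozygous ovaries (61.4 ± 4.09 against 48.8 ± 4.17%). The share of Lama2 was 9.22 ± 1.60% in wild-type and 14.1 ± 0.214% in heterozygous ovaries, and that of Lama4 23.3 ± 2.23 and 30.0 ± 3.64%. For these 3 shares the exact two-sided permutation p was 0.1, the smallest that 3 against 3 can give, and 0.35 after adjustment over 35 shares, so no share could pass. Shares within a class do not depend on the scaling between libraries, and a lower share of 1 chain raises the others.

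**Figure D3:**
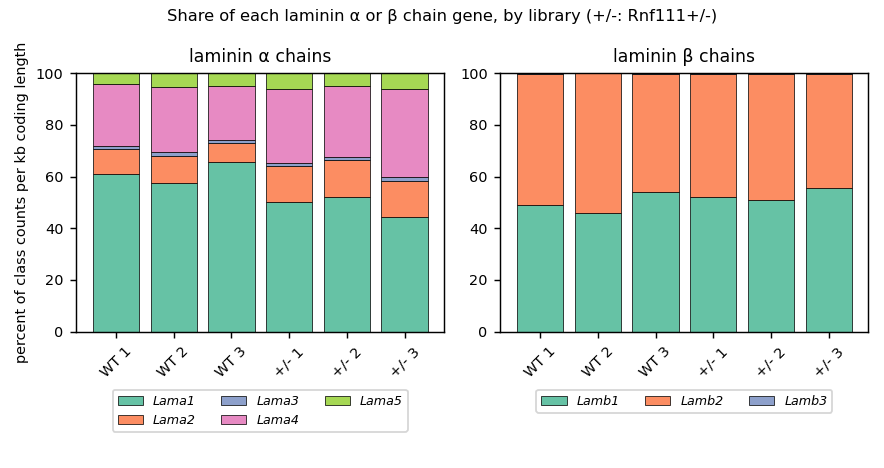
Percent of the laminin alpha or beta class, in counts per kilobase of coding length, made up by each chain gene in every library (WT 1 to 3 and heterozygous, +/-, 1 to 3). Lama1 takes 57.4 to 65.6% of the alpha chains in wild-type and 44.2 to 52.3% in heterozygous libraries, and Lamb1 takes 45.8 to 55.5% of the beta chains over all libraries.

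None of the 3 beta chain genes passed edgeR's test, with 1 at an unadjusted p under 0.05 and 1 called by DESeq2, in both cases Lamb2. Lamb1, the most widely shared beta chain and the highest of them in mean CPM over the 6 libraries, was at 244, 242 and 255 CPM in wild-type and 210, 211 and 246 CPM in heterozygous replicates. Heterozygous replicate 3 reached into the wild-type range, and the log2 fold change was -0.15 ± 0.08 (adjusted p = 0.282). Lamb2, the beta chain of synaptic and kidney filter laminins, was at 250, 281 and 211 CPM against 188, 199 and 193 CPM. Its genotypes did not overlap, with wild-type replicate 3 the closest to the heterozygous libraries. The log2 fold change of Lamb2 was -0.36 ± 0.10 (adjusted p = 0.0628), and without wild-type replicate 3 it was -0.45 ± 0.07 and passed (adjusted p = 0.00157). Lamb3, of the epithelial laminin-332, was low, at 0.481 ± 0.204 against 0.613 ± 0.181 CPM (log2 0.35 ± 0.47, adjusted p = 0.701). On coding length, Lamb1 and Lamb2 were at like levels in wild type, 44.9 ± 1.23 and 45.9 ± 6.50 CPM per kb. That difference was within their spread, but it depends on the length used. With the length of all exons, Lamb2 stood above Lamb1 in every library (61.7 against 38.1% of the wild-type beta chain signal).

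Lamc1, the gamma chain of most laminins, was at 248, 257 and 272 CPM in wild-type and 216, 197 and 208 CPM in heterozygous replicates. The genotypes did not overlap, and the mean fell from 259 ± 11.9 to 207 ± 9.77 CPM (log2 -0.32 ± 0.07, adjusted p = 0.0243). Lamc3, a gamma chain found in fewer tissues, was at 99.8, 116 and 29.4 CPM in wild-type and 47.4, 38.4 and 40.2 CPM in heterozygous replicates. Here wild-type replicate 3 lay below every heterozygous library while the other wild-type libraries lay far above them. Lamc3 did not pass over all libraries (log2 -0.96 ± 0.51, adjusted p = 0.318) and fell without wild-type replicate 3 (-1.35 ± 0.10, adjusted p = 1.71e-05).

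**Figure D4:**
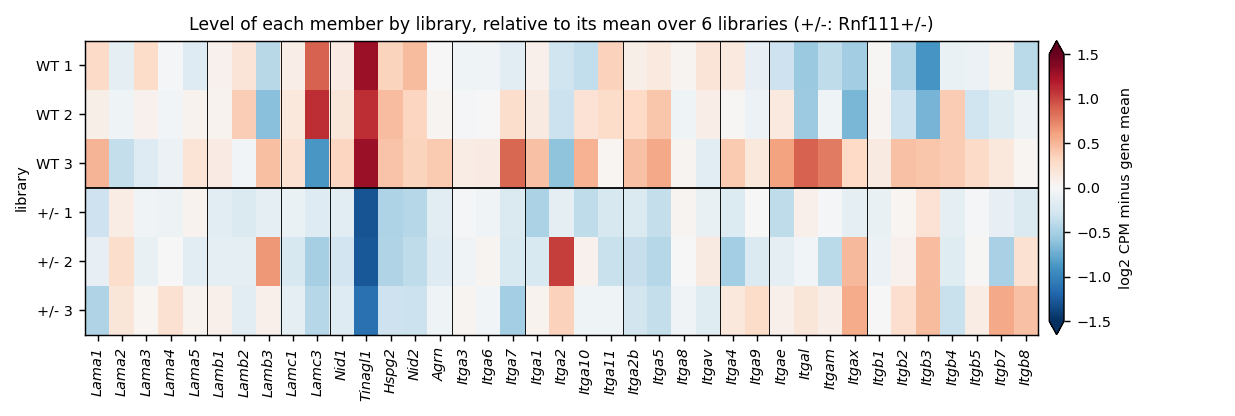
Log2 CPM of each gene in every library minus the mean of that gene over the 6 libraries, with red above and blue below the mean, the colour scale saturated at 1.5 on both sides, and genes ordered by role. Tinagl1 is red in all wild-type and blue in all heterozygous libraries, while Lamc3 and Itgb3 have opposite colours in wild-type replicate 3 and the other wild-type libraries.

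The 3 laminin-binding integrin alpha subunits did not pass edgeR's test, with 1 at an unadjusted p under 0.05 (Itga7) and 0 called by DESeq2. Itga6, which pairs with beta1 or, in hemidesmosomes, with beta4, had the highest CPM of the 3. It was at 137, 143 and 156 CPM in wild-type and 137, 147 and 139 CPM in heterozygous replicates. These ranges overlapped, and the log2 fold change of -0.05 ± 0.07 (adjusted p = 0.739) was bounded by -0.19 and 0.10 at 2 standard errors. Itga3, a receptor subunit for laminin-332 and laminin-511, was at 50.1 ± 3.19 against 49.2 ± 1.64 CPM (log2 -0.03 ± 0.08, adjusted p = 0.872). Itga7, known from muscle, was at 3.68, 4.95 and 7.51 CPM against 3.54, 3.52 and 2.90 CPM. Its genotypes did not overlap, with wild-type replicate 3 the highest, and the difference did not pass (log2 -0.70 ± 0.28, adjusted p = 0.16, and -0.37 ± 0.24, adjusted p = 0.338, without that library).

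None of the 4 collagen-binding alpha subunits passed edgeR's test, with 3 at an unadjusted p under 0.05 and 2 called by DESeq2. Itga2 is the alpha subunit of a collagen receptor of platelets and epithelia. It was at 28.1, 27.6 and 22.7 CPM in wild-type and 31.1, 70.9 and 43.8 CPM in heterozygous replicates. The genotypes did not overlap, but heterozygous replicate 2 stood far above the other 5 libraries. The mean was 26.1 ± 2.97 against 48.6 ± 20.3 CPM, the highest positive fitted change of the 40 genes (log2 0.90 ± 0.29, adjusted p = 0.12). It passed with DESeq2 (adjusted p = 0.00407) and without heterozygous replicate 1 (0.0379). Itga1, which prefers type IV collagen, was at 24.6 to 31.6 CPM against 16.8 to 24.3 CPM, with no overlap (log2 -0.42 ± 0.16, adjusted p = 0.133, and 0.0443 with replicate numbers blocked). Itga11, a fibrillar collagen receptor of fibroblasts, was at 18.3, 17.4 and 14.7 CPM against 12.2, 11.4 and 13.8 CPM, also with no overlap. Its log2 fold change was -0.43 ± 0.14 (adjusted p = 0.0859), passing with DESeq2 (0.0378) and without wild-type replicate 3 (-0.51 ± 0.13, adjusted p = 0.0233). Itga10, the cartilage collagen receptor subunit, overlapped at 4.73 ± 1.39 against 3.88 ± 0.590 CPM (log2 -0.28 ± 0.26, adjusted p = 0.549, and -0.06 ± 0.25, adjusted p = 0.902, without wild-type replicate 3).

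Of the alpha subunits that recognise the RGD sequence, 1 of 4 fell. Itga5 pairs with beta1 to form the main fibronectin receptor. It was at 69.8, 84.4 and 94.0 CPM in wild-type and 49.5, 47.2 and 49.5 CPM in heterozygous replicates. The heterozygous values were tightly grouped below the more spread wild-type values. The mean fell from 82.7 ± 12.2 to 48.7 ± 1.34 CPM, to 58.9% of the wild-type level (log2 -0.76 ± 0.11, adjusted p = 0.00475). On the scale of counts per kilobase it made up 9.64 ± 1.18% of the integrin alpha subunit signal in wild-type and 6.03 ± 0.375% in heterozygous ovaries, with no overlap (exact permutation p = 0.1, adjusted 0.35).

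Itgav pairs with several beta subunits including beta3 and beta5 and binds vitronectin and latent TGF-beta. It was the highest alpha subunit in mean CPM and per kilobase of coding length. With the length of all exons, Itga9 stood above it (24.9 against 22.5% of the wild-type alpha subunit signal). Itgav was at 288, 270 and 226 CPM in wild-type and 233, 277 and 222 CPM in heterozygous replicates, which overlapped (log2 -0.10 ± 0.11, adjusted p = 0.637). Itga2b, the platelet fibrinogen receptor subunit, was at 2.79, 3.24 and 3.58 CPM against 2.27, 2.07 and 2.17 CPM. Its genotypes did not overlap and it did not pass (log2 -0.56 ± 0.22, adjusted p = 0.157). Summed platelet and megakaryocyte markers were at 4.46 to 8.38 CPM in wild-type and 3.32 to 4.13 CPM in heterozygous libraries. Most of each sum was Pf4, at 3.76, 4.12 and 7.61 CPM in wild-type and 3.54, 2.12 and 2.93 CPM in heterozygous replicates. Of the 3 tested markers, 0 were called, 2 had fold changes below 0 and 1 above. The part of platelets in the Itga2b values was not tested. Itga8, a nephronectin receptor subunit, was at 13.1 ± 0.553 against 13.1 ± 0.404 CPM (log2 -0.01 ± 0.12, adjusted p = 0.98).

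Itga9, whose receptor binds tenascin and VCAM1, was at 192, 198 and 235 CPM in wild-type and 208, 180 and 255 CPM in heterozygous replicates. The heterozygous range enclosed the wild-type range (log2 0.04 ± 0.13, adjusted p = 0.884). Its relative Itga4, best known from leukocyte homing, was at 6.56 ± 0.893 against 5.13 ± 1.19 CPM (log2 -0.35 ± 0.22, adjusted p = 0.354). The alpha subunits of leukocytes were low, and none of the 4 passed edgeR's test (0 at an unadjusted p under 0.05, 0 called by DESeq2) or separated the genotypes. Itgam, the complement receptor subunit of myeloid cells, was the highest of them, at 5.27, 6.58 and 11.8 CPM in wild-type and 6.78, 5.21 and 7.39 CPM in heterozygous replicates. Wild-type replicate 3 was the top library for Itgam (log2 -0.29 ± 0.30, adjusted p = 0.603) and for Itgal, of the LFA-1 receptor, where it held 6.46 CPM against 2.37 to 3.94 CPM elsewhere (log2 -0.03 ± 0.39, adjusted p = 0.977). Itgax, a dendritic cell and macrophage subunit, was at 2.33 ± 0.908 against 3.47 ± 0.849 CPM (log2 0.57 ± 0.33, adjusted p = 0.323, and 0.95 ± 0.29, adjusted p = 0.0512, without wild-type replicate 3). Itgae, of intraepithelial lymphocytes, was at 0.481 ± 0.150 against 0.384 ± 0.0601 CPM (log2 -0.33 ± 0.45, adjusted p = 0.707).

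None of the 7 beta subunit genes passed edgeR's test over all libraries, with 1 at an unadjusted p under 0.05 (Itgb4) and 0 called by DESeq2. Itgb1, the partner of most alpha subunits in the list, had the highest level of the 40 genes per kilobase, 270 ± 11.4 CPM per kb in wild-type and 247 ± 10.2 in heterozygous ovaries. It was at 625, 636 and 677 CPM in wild-type and 573, 582 and 619 CPM in heterozygous replicates. The genotypes lay close together without overlap (log2 -0.13 ± 0.07, adjusted p = 0.299). The fold change of Itgb1 was bounded by -0.26 and 0.01 at 2 standard errors.

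Itgb3, which pairs with alphaV and with the platelet subunit alphaIIb, was at 38.4, 43.6 and 94.6 CPM in wild-type and 82.3, 97.7 and 98.0 CPM in heterozygous replicates. Wild-type replicate 3 lay among the heterozygous libraries and the other wild-type libraries well below all of them. Over all libraries Itgb3 did not pass (log2 0.65 ± 0.36, adjusted p = 0.329). Without wild-type replicate 3 it rose by 1.19 ± 0.10 on the log2 scale (adjusted p = 2.29e-05). Itgb2, the beta subunit of leukocytes, was at 7.59, 8.35 and 14.2 CPM against 10.7, 10.9 and 12.4 CPM, again with wild-type replicate 3 at the top. It gave 0.17 ± 0.24 (adjusted p = 0.7) over all libraries and 0.52 ± 0.15 (adjusted p = 0.0432) without that replicate. In the summed macrophage markers wild-type replicate 3 was also the highest library, and their part in the Itgb2, Itgam and Itgal values was not tested.

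Itgb4, the hemidesmosome subunit that pairs with alpha6, was at 7.31, 10.2 and 10.2 CPM in wild-type and 7.07, 6.90 and 6.19 CPM in heterozygous replicates. These did not overlap, and the difference did not pass (log2 -0.46 ± 0.18, adjusted p = 0.151). Itgb5, a vitronectin receptor subunit and the beta subunit of second highest level per kilobase, was at 207 ± 43.3 against 214 ± 9.91 CPM (log2 0.05 ± 0.14, adjusted p = 0.871). Itgb8, whose receptor activates latent TGF-beta, was at 9.17 ± 1.37 against 11.4 ± 2.50 CPM (log2 0.32 ± 0.20, adjusted p = 0.367). Itgb7, of gut-homing lymphocytes, was at 2.57 ± 0.309 against 2.63 ± 1.01 CPM (log2 0.03 ± 0.31, adjusted p = 0.963).

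With edgeR's main settings, wild-type replicate 3 thus decided the calls of Lamc3, Lamb2, Itga11, Itgb3 and Itgb2. Lamb2 and Itga11 also passed over all 6 libraries with DESeq2 (adjusted p = 0.0262 and 0.0378), and Lamb2 in edgeR with no filter (0.0283). Without wild-type replicate 3 Lamc3, Lamb2 and Itga11 fell and Itgb3 and Itgb2 rose, and the 8 calls made over all libraries were also made. Of these 5 genes, Itgb3 and Lamc3 moved furthest between the edgeR fits with and without that library. For each of the 5 the wild-type libraries differed from each other by more than the heterozygous libraries did. Oviduct, macrophage and granulosa cell markers set the same library apart. For Akr1c18, Ptgfr and Sfrp4, 3 of the 8 luteal markers, it lay between the other wild-type and the heterozygous libraries. Akr1c18 was at 86.1, 66.7 and 676 CPM in wild-type replicates 1 to 3 and at 1981 to 2646 CPM in heterozygous libraries. The other 5 luteal markers had fold changes below 0. The part of these cell types in the values of the 5 genes was not tested.

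**Figure D5:**
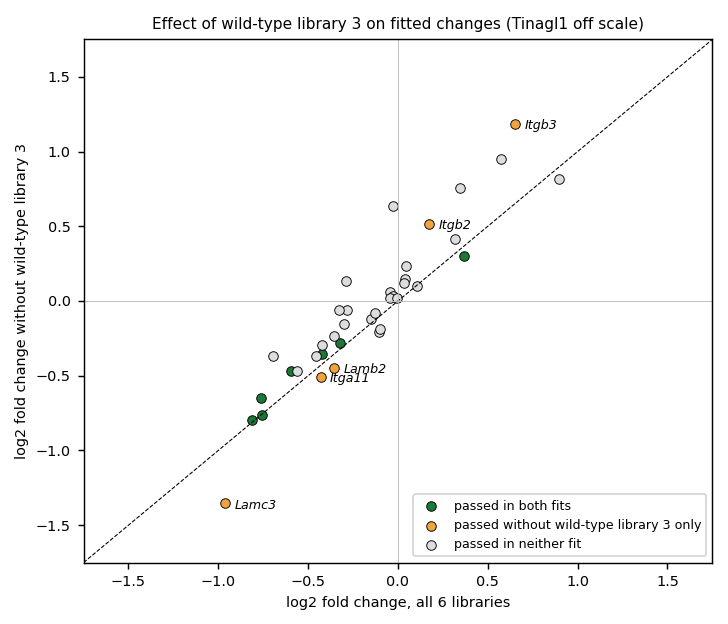
Log2 fold change, heterozygous over wild type, fitted over all 6 libraries (horizontal axis) and without wild-type replicate 3 (vertical axis), with Tinagl1 left out, which is off the scale at -2.46 and -2.41. Points away from the dashed line of equal values depend on that library, with Itgb3 at 0.65 and 1.19 and Lamc3 at -0.96 and -1.35.

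The partners of these genes were read from the same fit, from lists chosen by function. Of 26 tested basement membrane collagens and glycoproteins, 5 rose, 6 fell and 15 did not pass (19.2% and 23.1%, beside 3.90% and 5.74% of all genes), with a median log2 fold change of 0.05. Type IV collagen split by chain. Col4a1, of the alpha1-alpha1-alpha2 network found in all basement membranes, fell from 994 ± 98.8 to 630 ± 41.8 CPM (log2 -0.66 ± 0.09, adjusted p = 0.00447). Col4a3, of the alpha3-alpha4-alpha5 network, rose from 7.82 ± 0.822 to 14.4 ± 1.04 CPM (log2 0.88 ± 0.14, adjusted p = 0.00813). Chosen after their values were seen, Col4a2, the partner of Col4a1, fell (log2 -0.55 ± 0.10, adjusted p = 0.0131), and Col4a4 (0.52 ± 0.10, 0.0149) and Col4a6 (0.46 ± 0.11, 0.0301) rose. Col4a5 did not pass (log2 0.30, adjusted p = 0.159). Smoc2, a SPARC-related matrix protein, rose from 114 ± 10.9 to 376 ± 42.4 CPM (log2 1.72 ± 0.10, adjusted p = 0.00015), while Sparc itself, a collagen-binding glycoprotein, fell from 1986 ± 232 to 1081 ± 120 CPM (log2 -0.88 ± 0.11, adjusted p = 0.00311). Falls numbered 2 without heterozygous replicate 2 and 3 without heterozygous replicate 1 or 3, and rises 3 without heterozygous replicate 1 or 3.

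Among 23 tested integrin ligands outside the basement membrane, 3 rose, 2 fell and 18 did not pass (13.0% and 8.7%, beside 3.90% and 5.74% of all genes). Fn1, fibronectin, the ligand of the receptor that contains Itga5, fell from 147 ± 8.52 to 105 ± 6.33 CPM (log2 -0.49 ± 0.08, adjusted p = 0.00721). Tgfbi, a TGF-beta-induced matrix protein, fell (log2 -0.65 ± 0.11, adjusted p = 0.0117), and Mfge8, a bridging ligand of alphaV integrins, rose (0.37 ± 0.08, 0.0241). Ccn2, connective tissue growth factor, rose from 56.0 ± 17.9 to 182 ± 52.9 CPM (log2 1.70 ± 0.31, adjusted p = 0.027). The Ccn2 call ended when replicate numbers were blocked (0.12). It also ended without wild-type replicate 1 (0.088) or 3 (0.0664) and without heterozygous replicate 1 (0.0729) or 3 (0.0802). Falls numbered 1 without heterozygous replicate 2 or 3 and 3 without wild-type replicate 2 or 3. Rises numbered 0 without wild-type replicate 1 or heterozygous replicate 3 and 1 without heterozygous replicate 1 or 2.

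Laminin receptors other than integrins, with the dystrophin and dystroglycan complex and its glycosylation enzymes, gave 2 rises and 4 falls among 25 tested genes (8.0% and 16.0%, beside 3.90% and 5.74% of all genes). Bcam, the Lutheran glycoprotein that binds laminin alpha5, fell from 167 ± 7.62 to 124 ± 8.97 CPM (log2 -0.43 ± 0.08, adjusted p = 0.0121). Sntb1, a syntrophin, fell (log2 -0.75 ± 0.12, adjusted p = 0.00859), as did the sarcoglycan Sgcb (-0.53 ± 0.11, 0.0209). Pomt1, which starts the sugar chain on dystroglycan that binds laminin, rose (0.47 ± 0.07, 0.00784). Falls in this list numbered 1 without heterozygous replicate 2, and 2 without wild-type replicate 1 or heterozygous replicate 1. Rises numbered 4 without wild-type replicate 3, 2 without heterozygous replicate 1 and 1 in the other such fits. Of 44 genes of integrin signalling and the adhesion machinery, 1 rose and 4 fell, 11.4% beside the 9.64% of all genes. Cd151, a tetraspanin that associates with laminin-binding integrins, fell from 271 ± 13.9 to 211 ± 10.6 CPM (log2 -0.36 ± 0.07, adjusted p = 0.0182). The other named calls of this list were the tetraspanins Cd82 (-0.52 ± 0.12, 0.0298) and Cd81 (-0.28 ± 0.07, 0.0329), which fell, and the talin Tln2 (0.49 ± 0.11, 0.0291), which rose. Its falls numbered 7 without wild-type replicate 3 and 0 to 2 in the other such fits, and its rises 3 without wild-type replicate 3 and 0 or 1 in the others.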

How the data were processed

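Bulk RNA-seq of ovary from 3 wild-type and 3 Rnf111+/- mice was used. Per the labels' protocols, TRIzol was used to extract total RNA, and the libraries are of the VAHTS Universal V6 type. Raw read counts per gene symbol were deposited by the authors in 1 table. The submitters' processing notes name fastp 0.20.1, HISAT2 2.1.0, HTSeq 0.11.2, DESeq2 1.38.3 and build GRCm39. The role of each, the annotation and the strand setting: not given in the sources used here. Overlapping and antisense genes can therefore share reads. All rows carried a gene name. The number of columns without a sample was 0.

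Counts were fitted with edgeR 4.0.16 in R 4.3.3: filterByExpr (minimum count 10, minimum total 15), TMM scaling (factors from 0.9798 to 1.0176), and a robust quasi-likelihood model of genotype over all 6 libraries, tested two-sided with Benjamini-Hochberg adjustment over 16841 genes. Genes were called at an adjusted p under 0.05. Adjusted p-values come from it where no other tool is given. Standard errors were taken as the size of the log2 fold change over the root of the F statistic. CPM are TMM-scaled, and floors in counts cover counting error only. Coding lengths are from GENCODE M21 (GRCm38), another build than the authors', and promoter windows from RefSeq (GRCm38.p6). The fitting code was tested on simulated data. The closest pair of libraries, wild-type replicates 1 and 2, differed beyond sampling noise (chi-square 12.5 per degree of freedom), so all 6 counted as separate. P-values from edgeR weigh the genotype difference against the spread between mice, estimated with information shared over genes.

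Values of 1 gene counted among the 40 are not reported here. The genes and lists were chosen with earlier results of these data known. Values in every library are given for genes called and for the highest gene of each role. The other genes have fold changes and adjusted p, and up to 4 called genes of smallest p are named from each related list. Alternatives were DESeq2 size factors, upper quartile scaling, no filter, a stricter filter (50 counts in all and 1 CPM in 3 libraries), DESeq2 1.42.0, limma-voom (limma 3.58.1), a replicate block and leaving out each library. Exon union lengths for shares were added after seeing the data, as was counting Itgbl1.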

Additional observations from a re-analysis of the deposited data

How the results depend on the processing

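Leaving out 1 library at a time gave 4 to 10 falls and 0 to 4 rises among the 40 genes (7 and 1 over all libraries). Laminin and linker genes gave 3 to 8 falls and 0 to 2 rises, and integrin genes 1 to 2 falls and 0 to 2 rises. Basement membrane collagens and glycoproteins gave 2 to 7 falls and 3 to 6 rises, other integrin ligands 1 to 3 and 0 to 4, other laminin receptors 1 to 5 and 1 to 4, and the adhesion machinery 0 to 7 and 0 to 3. The share of all genes called moved too, from 9.64% over all libraries to 16.2% without wild-type replicate 3. The log2 fold change of Rnf111 stayed between -0.27 and -0.26. Shares moved from -14.49 to -10.21 percentage points for Lama1, -5.64 to -1.42 for Lamb2, -13.41 to -2.68 for Lamc3, -4.27 to -3.11 for Itga5 and -8.03 to -3.65 for Itgb1. DESeq2 gave 2 rises over the 40 genes (Itga2 added), 2 falls and 1 rise among integrin genes, 4 falls among ligands and 10 in the machinery. It also called more of all genes, with 8.57% fallen and 6.96% risen. Same-numbered libraries of both genotypes correlated at 0.012, 0.006 and 0.1 in their deviations from the group means, so the numbers were not taken to pair mice. With the replicate number as a block, integrin genes gave 2 falls, the machinery 7 falls and 2 rises, and Rnf111 -0.27 (adjusted p = 0.0653). The share of all genes called with the block is not given here, so these counts have no such share beside them. Rnf111 gave -0.24 (0.0602) with upper quartile scaling and -0.27 (0.0762) with no filter. With exon union lengths, the Itga5 share moved to -5.62 points. Genes that changed sign were all uncalled over all libraries: with upper quartile scaling Itga3 (0.0045), Itga8 (0.024) and Itgal (0.0004). Itga8 also did so with DESeq2 size factors (0.0015), the stricter filter (0.0071) and DESeq2 (0.0016), Itgal with limma-voom (0.1348) and the block (0.1303), and Itgb7 with limma-voom (-0.0295) and the block (-0.0192). Leaving out libraries took Itga3 from -0.0543 to 0.0359, Itga6 from -0.0762 to 0.0186, Itga8 from -0.0333 to 0.0216, Itga9 from -0.0968 to 0.1603, Itgal from -0.26 to 0.63, Itgam from -0.50 to 0.13, Itgb5 from -0.0673 to 0.2341, Itgb7 from -0.31 to 0.25, Lama3 from -0.2077 to 0.0278 and Lama5 from -0.1344 to 0.0622. The cause of these changes was not tested. At 3 libraries a genotype, no exact permutation p can go below 0.1.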

Other observations

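Itgbl1, an integrin-beta-like secreted protein that is no receptor subunit and was not counted among the 40 genes, fell from 5.10 ± 0.892 to 2.40 ± 0.404 CPM (SD, n = 3 each; log2 -1.08 ± 0.23, adjusted p = 0.024 by edgeR's quasi-likelihood test). It was at 4.98, 6.04 and 4.27 CPM in wild-type and 2.86, 2.12 and 2.22 CPM in heterozygous replicates, with no overlap. Markers of oocytes, which lie inside the follicle basement membrane, were at 162 to 182 CPM in sum in wild-type and 217 to 297 CPM in heterozygous libraries. Of these, 4 of 10 rose (40.0%, beside 3.90% of all genes tested). Of the 10 granulosa cell markers, 1 rose (Cyp19a1) and 0 fell, beside 3.90% and 5.74% of all genes tested.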
